A study of Mus musculus with 22 samples.

Results

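The plasminogen activation system was read at 7 genes in FE1 cells, a line derived from lung epithelium of the transgenic MutaMouse. The genes are Plat and Plau (the activators), Plaur (the receptor of urokinase), Serpinb2 and Serpine2 (inhibitors of the activators), Serpinf1 (a serpin without protease inhibition) and F3 (tissue factor). They were chosen by symbol, through the accession of each probe, and are covered by 9 of the 55681 probes and 7 of the 20018 named genes on the array. Cells had been exposed for 24 h to Mitsui7, which consists of multi-walled carbon nanotubes. The control had 0 µg/ml and 5 arrays, the low dose was 12.5 µg/ml on 6 arrays, the medium dose 25 µg/ml on 5 and the high dose 100 µg/ml on 6. All 4 groups are the same line and differ in dose alone. On each of the 22 arrays the sample carried Cy5 and Universal Mouse Reference RNA, a pool from mouse cell lines, carried Cy3, so a level is a log2 ratio of sample to reference and holds for its own probe only.

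Plasmin is the protease that dissolves fibrin and also cuts matrix proteins and growth factor precursors. It is made from plasminogen by tissue-type plasminogen activator (the product of Plat), which works mainly on fibrin, or by urokinase (the product of Plau), which works mainly at the cell surface while bound to its receptor (the product of Plaur). Serpins such as those of Serpinb2 and Serpine2 trap the activators as covalent complexes. Tissue factor, the product of F3, binds factor VII and starts coagulation, the process that deposits the fibrin. In the lung, epithelial cells and macrophages express parts of both systems, and the balance between them sets how long fibrin stays in injured airspaces.

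The promoters of the 3 genes called higher at the medium and high doses are shown here because these genes were called in the same direction at the same doses. Each run is the 250 bases before the transcription start, 5′ to 3′ on the strand of the gene, from RefSeq on GRCm38.p6, with matches to TGANTCA, the AP-1 motif, in capitals.
Serpinb2, chr1:107511173-107511422, plus strand: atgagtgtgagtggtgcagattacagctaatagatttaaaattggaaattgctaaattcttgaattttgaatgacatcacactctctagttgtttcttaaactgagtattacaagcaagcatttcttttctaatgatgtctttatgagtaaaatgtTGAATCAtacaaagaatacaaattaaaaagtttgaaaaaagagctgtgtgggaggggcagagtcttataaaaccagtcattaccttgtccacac
Plaur, chr7:24462233-24462482, plus strand: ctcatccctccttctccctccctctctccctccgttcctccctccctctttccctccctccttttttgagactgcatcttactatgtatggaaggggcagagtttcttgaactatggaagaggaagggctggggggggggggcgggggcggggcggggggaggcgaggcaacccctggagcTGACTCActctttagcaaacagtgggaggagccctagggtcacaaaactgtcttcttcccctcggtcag
F3, chr3:121723287-121723536, plus strand: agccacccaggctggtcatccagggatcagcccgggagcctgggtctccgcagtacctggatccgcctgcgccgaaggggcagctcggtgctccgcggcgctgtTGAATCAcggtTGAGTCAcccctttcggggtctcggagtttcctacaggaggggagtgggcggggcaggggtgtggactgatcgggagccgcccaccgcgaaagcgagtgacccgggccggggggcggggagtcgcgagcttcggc

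AP-1 is the dimer of Fos and Jun proteins. RefSeq gives 2 starts for Serpinb2, and the first is printed. The AP-1 letters began 94 bases before that start, 69 bases before it in Plaur, and 146 and 135 bases before it in F3. The windows of Serpine2 and Serpinf1 hold no such match, and Serpine2 was detected on 0 of 22 arrays. The motifs were chosen with earlier results of these data known, and their part in the changes was not tested. Plat, the member that fell, and Plau had no promoter entry and were not searched. Of 32817 promoter windows of the same length, 2216 (6.75%) hold TGANTCA on either strand. The palindromic CRE motif TGACGTCA, held by 1.55% of all windows on either strand, matched none of the 5 members with an entry. The TATA box letters TATAAA, searched on both strands and held by 12.4% of all windows, began 29 bases before the printed start of Serpinb2 and were in no window of the other 4. Before the other start of Serpinb2 the AP-1 letters began at 181 bases and TATAAA at 116. The GC box GGGCGG, bound by Sp1 and held by 32.7% of all windows on either strand, matched in Serpine2, Plaur and F3. A match describes letters and not binding.

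Across the arrays 42.54 to 70.29% of probes were detected, meaning that Cy5 was brighter than a negative control level, set 3 SD over the mean of the negative control spots of the same array. Precision is limited by how many arrays there are. The arrays lay on 5 slides, of which slide 1 held 2 of each group, slides 2, 3 and 4 had 1 of each and slide 5 had 1 array of the low and 1 of the high dose. By the correlation of slide-centred profiles, low dose replicate 1 was closest to the mean of the medium dose, medium dose replicate 2 to the low dose, low dose replicates 2 and 5 to the control, medium dose replicates 1 and 5 to the high dose, and high dose replicate 6 to the medium dose. Slide 5 held replicate 5 of the low and high doses alone, so centring makes these 2 profiles mirror images (0.356 and -0.356 with the control). The place of low dose replicate 5 thus cannot show a likeness to the control. The epithelial label was checked against 7 markers. Cdh1 (E-cadherin) was detected on 0 of 22 arrays and Epcam on 10, and Krt8 and Krt18 were detected on all 22 at a mean log2 ratio of -4.35 and -5.62 in the controls. Krt7 was detected on all 22 at a mean of -0.31 in the controls, Krt19 on 21 at -4.91, and Cldn4 on 16. Krt7 fell at the medium dose by 0.79 (adjusted p = 0.000256, limma) and at the high dose by 0.85 (adjusted p = 4.97e-05), and had -0.51 at the low dose (adjusted p = 0.0165), under 1.5-fold. Krt8 changed by 0.02, -0.16 and -0.14 with rising dose and Krt18 by 0.06, -0.18 and -0.03. Krt19 changed by -0.18, -0.16 and -0.28 and Cldn4 by -0.19, -0.10 and -0.23. None of them was called. The mean log2 ratio of Cldn4, Krt19, Krt7 and Krt8 ran from -2.76 to -1.89 in control arrays, and with rising dose from -2.79 to -2.18, from -2.94 to -2.46 and from -2.96 to -2.48. This mean leaves out Krt18, which had no value on some array. Of 5 alveolar and club cell markers, Scgb1a1 was detected on 21 arrays and Sftpc on 17. Their mean log2 ratios in the controls were 0.35 and 0.43. Sftpb was detected on 3 arrays, Foxj1 on 2 and Nkx2-1 on 0. With rising dose Scgb1a1 changed by 0.14, 0.40 and 0.49 and Sftpc by 0.11, 0.75 and 0.61, and neither was called. The 4 mesenchymal markers (Vim, Col1a1, Acta2 and Pdgfrb) were detected on all 22 arrays. Col1a1 fell at all 3 doses, by 0.88, 1.08 and 1.34 on the log2 scale, and Pdgfrb at the medium and high doses, by 0.97 and 1.34. Acta2 had -0.37, -0.75 and -0.70 with rising dose, and Vim went the other way with 0.14, 0.39 and 0.14. Neither was called at any dose. The mean log2 ratio of Acta2, Col1a1 and Pdgfrb, the 3 measured on every array, ran from 0.37 to 0.80 in control arrays, and with rising dose from -0.91 to 0.45, from -1.16 to -0.05 and from -0.92 to -0.19. The part of these changes in the results below was not tested.

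Serpinb2, Plaur and F3 rose and Plat fell after exposure, while Plau and Serpinf1 did not pass the test and Serpine2 was not detected. A call needed an adjusted p (limma, Benjamini-Hochberg over all probes) of 0.05 or less, a 1.5-fold or larger change and detection in either group on 4 or more arrays. Of the 6 detected members, the low dose had 2 called higher and 1 lower, while over all detected named genes 2.17% passed as higher and 3.01% as lower. At the medium dose 3 were called higher and 1 lower, against 4.24% and 4.65% of all. At the high dose it was again 3 higher and 1 lower, against 5.45% and 6.4% of all. The 3 comparisons share the control arrays. The median change of the 6 members on the log2 scale was 0.13, 0.59 and 0.48 at the low, medium and high doses, and that of all detected named genes was 0, 0 and 0.01.

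**Figure D1:**
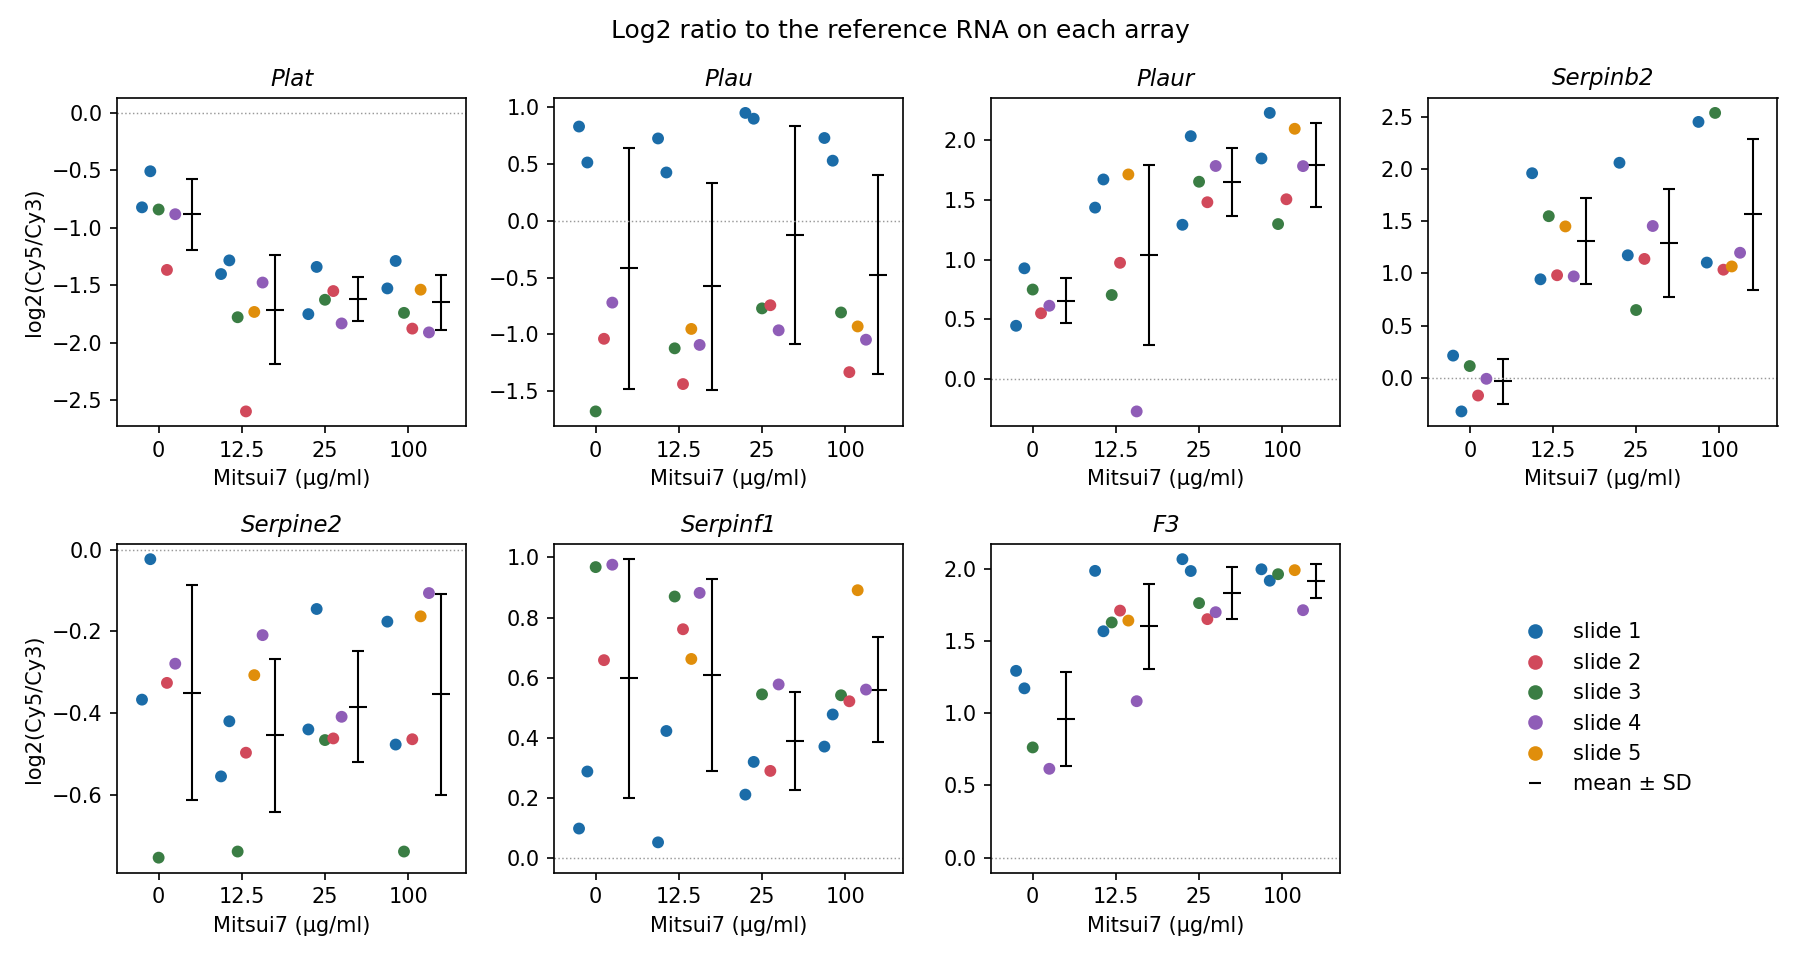
Log2 ratio of Cy5 to Cy3 (y axis) of the brightest probe of each gene on each array, by dose of Mitsui7 in µg/ml (x axis), with points coloured by slide and the mean ± SD of each group in black. All exposed arrays lie above all control arrays in Serpinb2, where the highest control value is 0.21 and the lowest exposed value 0.65, and Plau splits by slide 1 against the other slides.

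**Figure D2:**
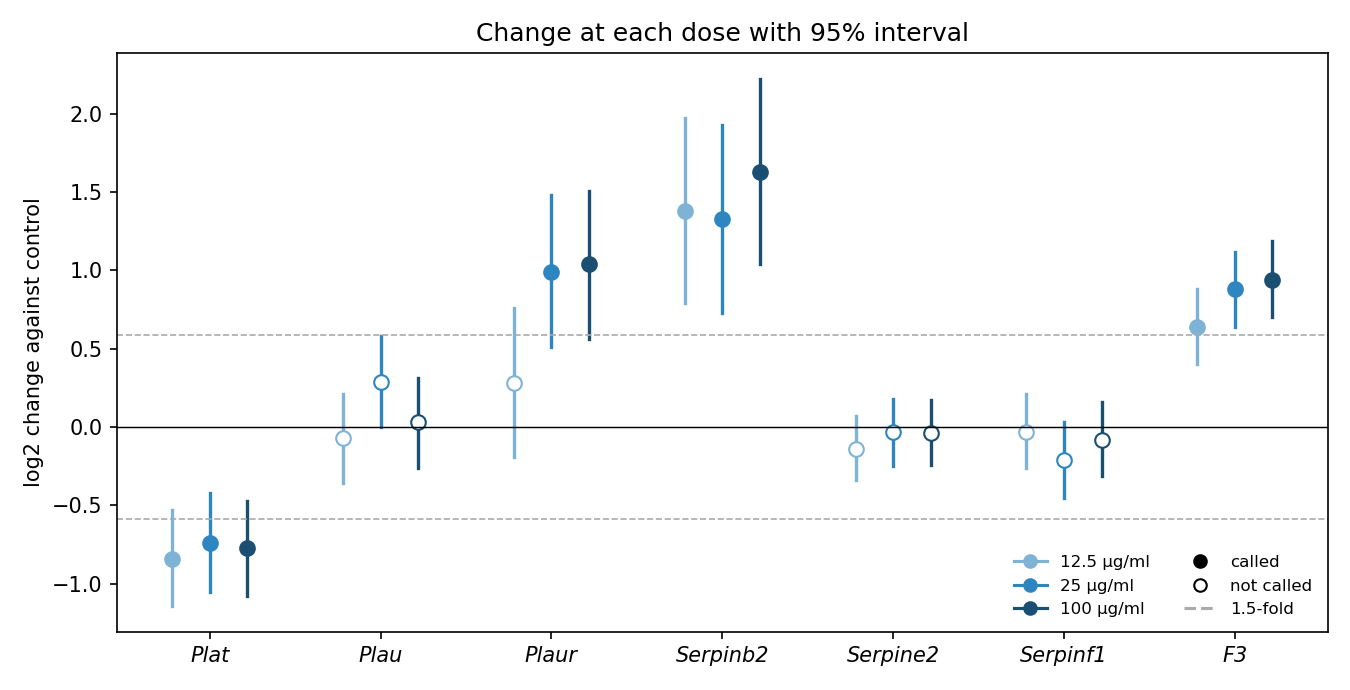
Change against control on the log2 scale (y axis) of each gene at 12.5, 25 and 100 µg/ml, with its 95% interval from the limma fit. Filled points passed all 3 conditions of a call, open points did not, and the dashed lines mark 1.5-fold.

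Among the activators, Plat, which encodes tissue-type plasminogen activator, fell at every dose. Its log2 ratios in the control replicates 1 to 5 were -0.82, -0.51, -0.84, -1.37 and -0.88. The low dose arrays ran from -2.60 to -1.28 with a median of -1.60. The 5 medium dose arrays had -1.75, -1.34, -1.63, -1.55 and -1.83. The high dose arrays ran from -1.91 to -1.29 with a median of -1.64. Control replicate 4, on slide 2, was the lowest control and overlapped with 1 array of each dose, and after removal of slide effects all 17 exposed arrays lay below all 5 controls. Plat changed by -0.84 at the low (SE 0.15, adjusted p = 0.00184, limma), -0.74 at the medium (SE 0.15, adjusted p = 0.00421) and -0.77 at the high dose (SE 0.15, adjusted p = 0.00141), which is 1.79-, 1.67- and 1.71-fold lower. Within slides the difference from control was negative in all 12 slide and dose pairs, from -1.23 to -0.18. The high dose differed from the low dose by 0.06 (95% interval -0.22 to 0.35). Low dose replicate 4, on slide 2, had a Cy5 signal of 76 against a negative control level of 95 and was the 1 array on which Plat was not detected. It gave both the ratio of -2.60 and the within-slide difference of -1.23, and without it the change at the low dose was -0.69 (adjusted p = 0.00416, limma) and the high dose differed from the low dose by -0.07. With the ratio of the scanner software the decrease missed the threshold at the medium (-0.88, adjusted p = 0.119) and high (-0.90, adjusted p = 0.0795) doses, and without slide 1 at the medium dose (adjusted p = 0.145).

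Plau, which encodes urokinase, was not called at any dose. Its control ratios were 0.83, 0.51, -1.68, -1.04 and -0.72. The same split ran through every group. The 8 arrays of slide 1 had ratios from 0.43 to 0.95 and the 14 others from -1.68 to -0.72. The Cy3 signal of the probe, which reads the reference RNA, was 59 to 85.5 on slide 1 and 120 to 467 on the other slides, and its Cy5 signal was 109.5 to 198 and 76 to 201. The ranges of the Cy3 signal did not overlap, and those of the Cy5 signal did. With slide in the model, Plau changed by -0.07 at the low (95% interval -0.36 to 0.21), 0.29 at the medium (0 to 0.58, adjusted p = 0.326) and 0.03 at the high dose (-0.26 to 0.31). The upper bound at the medium dose is just under the 1.5-fold line, at 0.585 on the log2 scale, and this depends on the scale. The ratio of the scanner software gave 0.64 at the medium dose (adjusted p = 0.15, limma), above that line. The deposited processed table gave 0.39 (adjusted p = 0.187), and neither was called.

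Plaur, which encodes the urokinase receptor, rose at the medium and high doses. Its control ratios were 0.44, 0.93, 0.75, 0.55 and 0.61. The low dose arrays ran from -0.27 to 1.71 with a median of 1.20. The medium dose arrays had 1.29, 2.04, 1.65, 1.48 and 1.78. The high dose arrays ran from 1.30 to 2.23 with a median of 1.82. All medium and high dose arrays lay above all controls, and the low dose arrays overlapped with both neighbours, with replicate 6 below every control. Plaur changed by 0.99 (SE 0.23, adjusted p = 0.0124, limma) at the medium dose, 1.99-fold, and by 1.04 (SE 0.23, adjusted p = 0.0049) at the high dose, 2.05-fold. At the low dose the change was 0.28 (SE 0.23, 95% interval -0.19 to 0.76, adjusted p = 0.666). Without low dose replicate 6 it was 0.57 (SE 0.17, adjusted p = 0.077). The dose groups were also compared with each other. The high dose exceeded the low dose by 0.76 (SE 0.21, 95% interval 0.31 to 1.20) at an unadjusted p of 0.00201 and an adjusted p of 0.184 from limma, and the medium dose exceeded the low dose by 0.71 (SE 0.23) at an adjusted p of 0.868. A difference between the doses was thus not called. Without low dose replicate 6 the high dose exceeded the low dose by 0.50 (SE 0.15, adjusted p = 0.338) and the medium dose did by 0.43 (SE 0.17, adjusted p = 0.999). Within slides the medium dose lay 0.90 to 1.17 above control and the high dose 0.55 to 1.35 above it, on all 4 slides, while the low dose ran from -0.89 to 0.87. The -0.89 sets low dose replicate 6 against control replicate 5, which share slide 4 and not a replicate number. With the replicate number as a term in place of slide, the low dose change was 0.51 (adjusted p = 0.155, limma). The call at the medium dose was lost without medium dose replicate 5 (change 0.86, adjusted p = 0.0577), and without slide 1 the adjusted p was 0.0748 at the medium and 0.115 at the high dose. Median centring gave 1.11 (adjusted p = 0.0988) at the medium and 1.02 (adjusted p = 0.0853) at the high dose. The medium dose also missed the threshold without a slide term (adjusted p = 0.0551), with an ordinary linear model (0.0518), without slide 2 (0.0559) and without slide 3 (0.0606).

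Serpinb2, which encodes plasminogen activator inhibitor type 2, rose at every dose. Its ratios in the control replicates were 0.21, -0.32, 0.11, -0.17 and -0.01. The low dose arrays ran from 0.94 to 1.96 with a median of 1.22. The medium dose arrays had 2.06, 1.17, 0.65, 1.14 and 1.45. The high dose arrays ran from 1.04 to 2.54 with a median of 1.15, replicates 1 and 3 standing at 2.45 and 2.54 and the other 4 at or below 1.20. No exposed array overlapped with a control. Serpinb2 changed by 1.38 at the low (SE 0.28, adjusted p = 0.00683, limma), 1.33 at the medium (SE 0.29, adjusted p = 0.00705) and 1.63 at the high dose (SE 0.28, adjusted p = 0.000578). The doses did not differ by a call, with 0.26 (95% interval -0.30 to 0.81) between high and low and -0.05 (-0.64 to 0.54) between medium and low. Within slides the increase was present in all 12 slide and dose pairs, from 0.54 to 2.42.

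The signal of Serpinb2 was dim, which bears on the size of its change. Its Cy5 signal was 67 to 122 in the controls and was above the negative control level on 2 of 5 of them, and it was 117 to 396.5 in the 17 exposed arrays, all detected. The ratios carry the background of the spot, which can understate a change of a gene near background. The ratio of the scanner software, which subtracts background, gave 2.98, 2.96 and 3.36 at the low, medium and high doses, all called, and the deposited processed table gave 1.23, 1.28 and 1.46, all called. Another background correction (normexp, with an offset of 50) gave smaller changes of 1.20, 1.17 and 1.40, all called. The size of the change thus depends on the background correction, and most controls were not above the negative control level. Median centring gave 0.90 at the medium dose (adjusted p = 0.0762), and without slide 1 the low and medium doses missed the threshold (adjusted p = 0.0606 and 0.106).

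**Figure D3:**
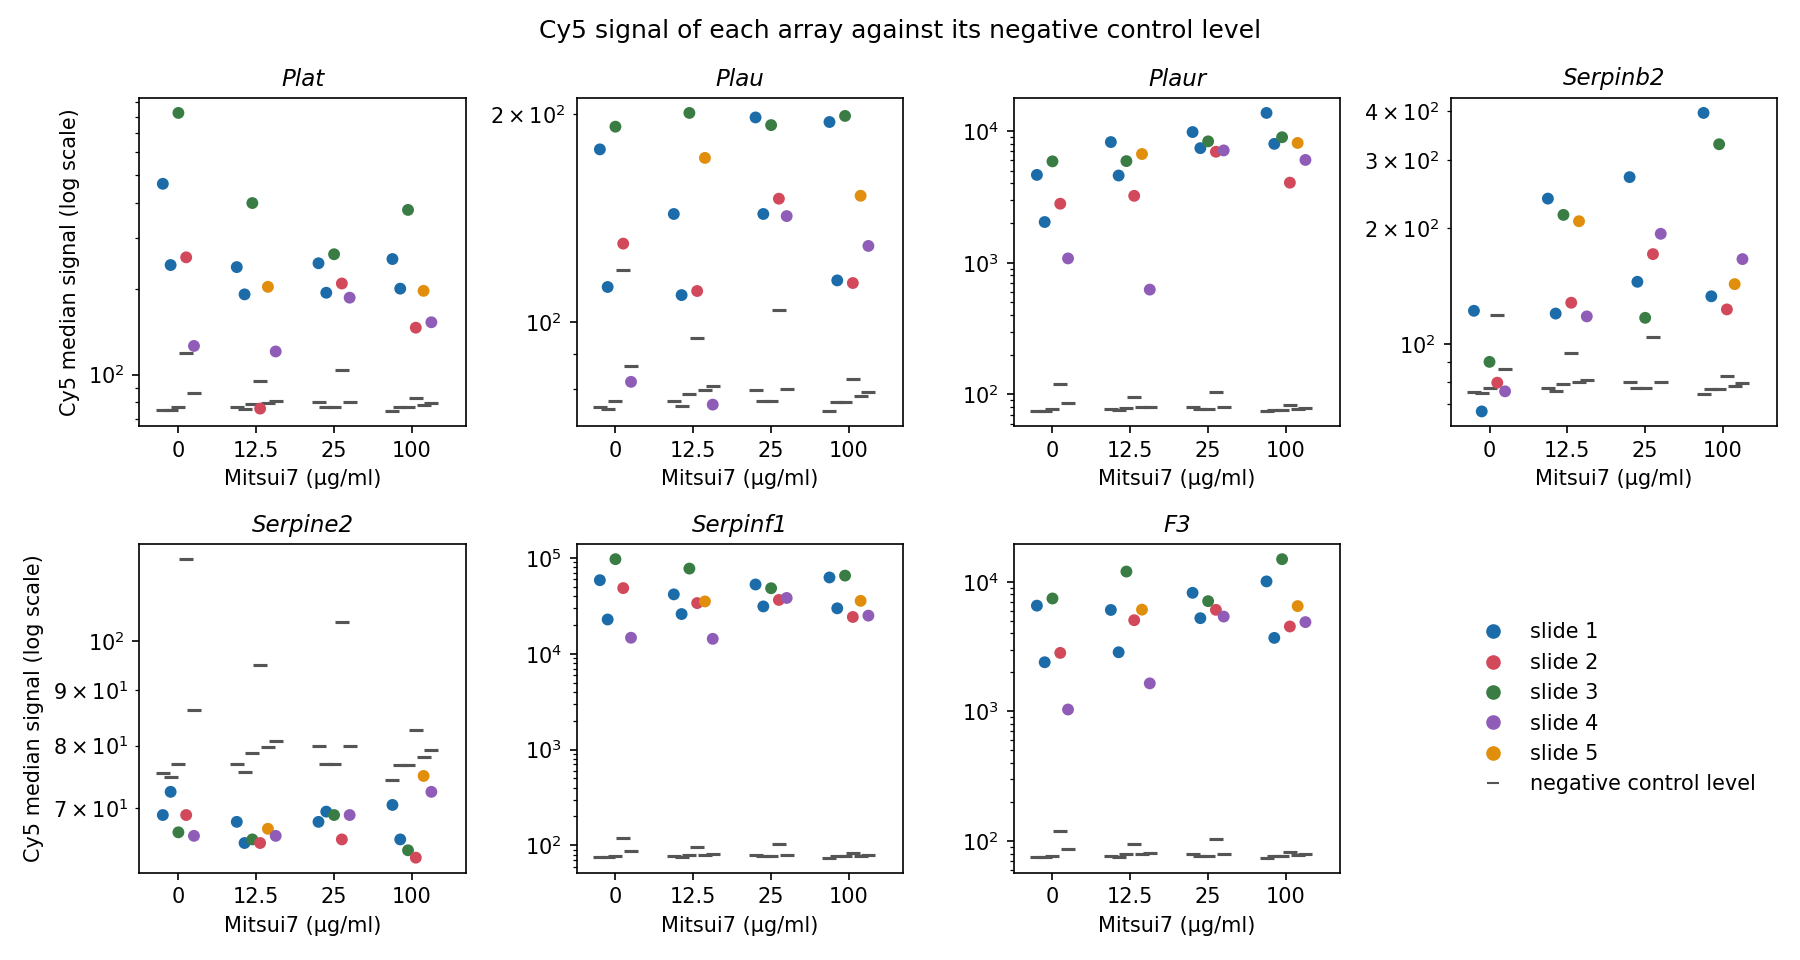
Cy5 median signal (y axis, log scale) of the brightest probe of each gene on each array, by dose in µg/ml (x axis), coloured by slide, with a grey bar at the negative control level of the same array. Serpine2 lies below its bar on all 22 arrays, 3 of the 5 Serpinb2 controls lie below theirs, and Plaur, Serpinf1 and F3 lie far above.

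Serpine2, which encodes protease nexin-1, an inhibitor of thrombin and of both activators, was detected on 0 of 22 arrays. Its Cy5 signal was 63 to 75, against negative control levels of 74.3 to 119.1, so its ratios carry no order between doses and no fold is given.

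Serpinf1, which encodes pigment epithelium-derived factor, a serpin that acts on vessel growth and not on proteases, was bright and not called at any dose. Its control ratios were 0.10, 0.29, 0.97, 0.66 and 0.98, and the exposed arrays ran from 0.05 to 0.89, inside the range of the controls apart from low dose replicate 1. The change was -0.03 at the low (95% interval -0.26 to 0.21), -0.21 at the medium (-0.45 to 0.03) and -0.08 at the high dose (-0.31 to 0.16), so that each interval lies inside 1.5-fold. The dimmer probe of the gene gave -0.25 (-0.72 to 0.23), -0.36 (-0.85 to 0.12) and -0.40 (-0.88 to 0.07), intervals that reach beyond 1.5-fold.

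F3, which encodes tissue factor, rose at every dose. The brighter of its 2 probes had control ratios of 1.29, 1.17, 0.76 and 0.62, with no value in replicate 4, which was marked as an outlier. The low dose arrays ran from 1.08 to 1.99 with a median of 1.63. The medium dose arrays had 2.07, 1.98, 1.76, 1.65 and 1.70. The 5 high dose arrays with a value had 2.00, 1.92, 1.96, 1.99 and 1.71, replicate 4 being marked as an outlier. Only low dose replicate 6, on slide 4, overlapped with the controls, and after removal of slide effects no exposed array did. F3 changed by 0.64 at the low (SE 0.11, adjusted p = 0.00276, limma), 0.88 at the medium (SE 0.12, adjusted p = 1e-04) and 0.94 at the high dose (SE 0.12, adjusted p = 2.62e-05), which is 1.56-, 1.84- and 1.92-fold. The dimmer probe gave 0.68, 0.92 and 0.80 and was called at all 3 doses (adjusted p = 0.00769, 0.000422 and 0.000732). The high dose exceeded the low dose by 0.30 (SE 0.10, 95% interval 0.09 to 0.52) on the brighter probe, at an unadjusted p of 0.00933 and an adjusted p of 0.357 from limma, and by 0.12 (-0.16 to 0.40) on the dimmer one. The change at the low dose lies near the 1.5-fold line and fell below it without control replicate 3 (0.57) and without low dose replicate 1 (0.58). Median centring in place of loess gave 0.50, 0.97 and 1.02 for the 3 doses, with adjusted p = 0.556, 0.146 and 0.072.

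Between doses no member was called in any of the 3 comparisons by limma or by the ordinary linear model. At an unadjusted p under 0.05, limma found 2 members (F3 and Plaur) for high against low dose, 0 for high against medium dose and 3 (F3, Plau and Plaur) for medium against low dose. Of all detected named genes, 0.435% were called for high against low dose and 0% for each of the other comparisons. An unadjusted p under 0.05 from limma was found in 2087 of 14256 such genes for high against low dose. For high against medium dose it was found in 767 of 14107, and for medium against low dose in 1181 of 13876.

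Over the arrays, with slide means removed, the ratios of F3 and Serpinb2 had a Pearson r of 0.798 (20 arrays), and Plat had an r of -0.822 with F3 (20 arrays) and -0.785 with Serpinb2 (22 arrays). With the group means removed as well, these were 0.385, -0.658 and -0.354. Plaur and F3 went from 0.666 to 0.0589, and Plaur and Serpinb2 from 0.419 to -0.252 (22 arrays). The arrays share slides and doses, so these values describe the arrays and have no test. By the same measure over 11644 named genes, the genes most like F3 were Zfp7, Plcl2 and Slc25a33 (r from 0.953 to 0.964), those most like Serpinb2 were Ppp4r1, Hpdl and Flacc1 (0.909 to 0.929), and those most like Plat were E2f1, Id3 and Psmb9 (0.905 to 0.931). For Plaur they were Slc4a1ap, Noc2l and Washc2 (0.833 to 0.886), for Serpinf1 Maf1, Mfsd13a and Pnpla7 (0.819 to 0.858), and for Plau Ttc32, Ube3a and Thg1l (0.816 to 0.824).

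The other genes of the system were read from lists. Of 19 further genes of plasminogen activation that are reported, 13 were detected at the high dose or in the controls. They had a median change of -0.14 at the high dose against 0.01 for all detected named genes. At the high dose 0 of them were called higher and 1 lower, against 5.45% and 6.4% of all detected named genes. The call that was made among them was a decrease of Serpini1, the gene of neuroserpin, an inhibitor of tissue-type plasminogen activator, by 0.71 (SE 0.21, adjusted p = 0.0376, limma) at the high dose. Plgrkt, a plasminogen receptor, had adjusted p = 0.00413 at the high dose with a change of -0.54, under 1.5-fold. Lrp1, the endocytic receptor that clears complexes of activator and inhibitor, had -0.93 (SE 0.29, adjusted p = 0.0518). Anxa2 and S100a10, which form a plasminogen-binding complex at the cell surface, had -0.34 and -0.22 and were not called, and Plg itself was detected on 0 arrays.

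Of 25 coagulation genes, 14 were detected for the high dose comparison, 1 was called higher and 2 were called lower. Over all detected named genes 5.45% were called higher and 6.4% lower at that dose. Procr, the endothelial protein C receptor, rose by 0.87 (SE 0.14, adjusted p = 0.00105, limma), 1.02 (adjusted p = 0.000166) and 1.14 (adjusted p = 2.28e-05) at the low, medium and high doses. Serpind1, the gene of heparin cofactor II, which inhibits thrombin, fell by 1.11, 1.22 and 1.35, and was detected on 5 of 5 control arrays and 9 of 22 in all, so its exposed values lie near background. Pros1, the gene of protein S, fell by 0.91 (adjusted p = 0.0312) at the high dose. Tfpi, the inhibitor of tissue factor, had -0.14, -0.07 and 0.09 and was not called at any dose, nor was the thrombin receptor F2r, at -0.12, -0.07 and -0.19.

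Of 20 other serpins, 18 were on the array and 7 were detected for the high dose comparison. Of these, 0 were called higher and 1 lower, against 5.45% and 6.4% of all detected named genes. Serpinb1a, an inhibitor of neutrophil proteases, fell at all 3 doses, by 1.06, 1.31 and 1.32 (adjusted p = 1.84e-05, 4.72e-06 and 4.93e-07, limma). The other 6 were not called at the high dose and ran from -0.53 in Serpinh1, the collagen chaperone, to 0.31 in Serpinb6a. Serpinb1a belongs to the clade B serpins, as does Serpinb2. Of the other clade B serpins on the list, Serpinb6a, Serpinb6b, Serpinb8 and Serpinb9 were detected on all 22 arrays and were not called at any dose.

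**Figure D4:**
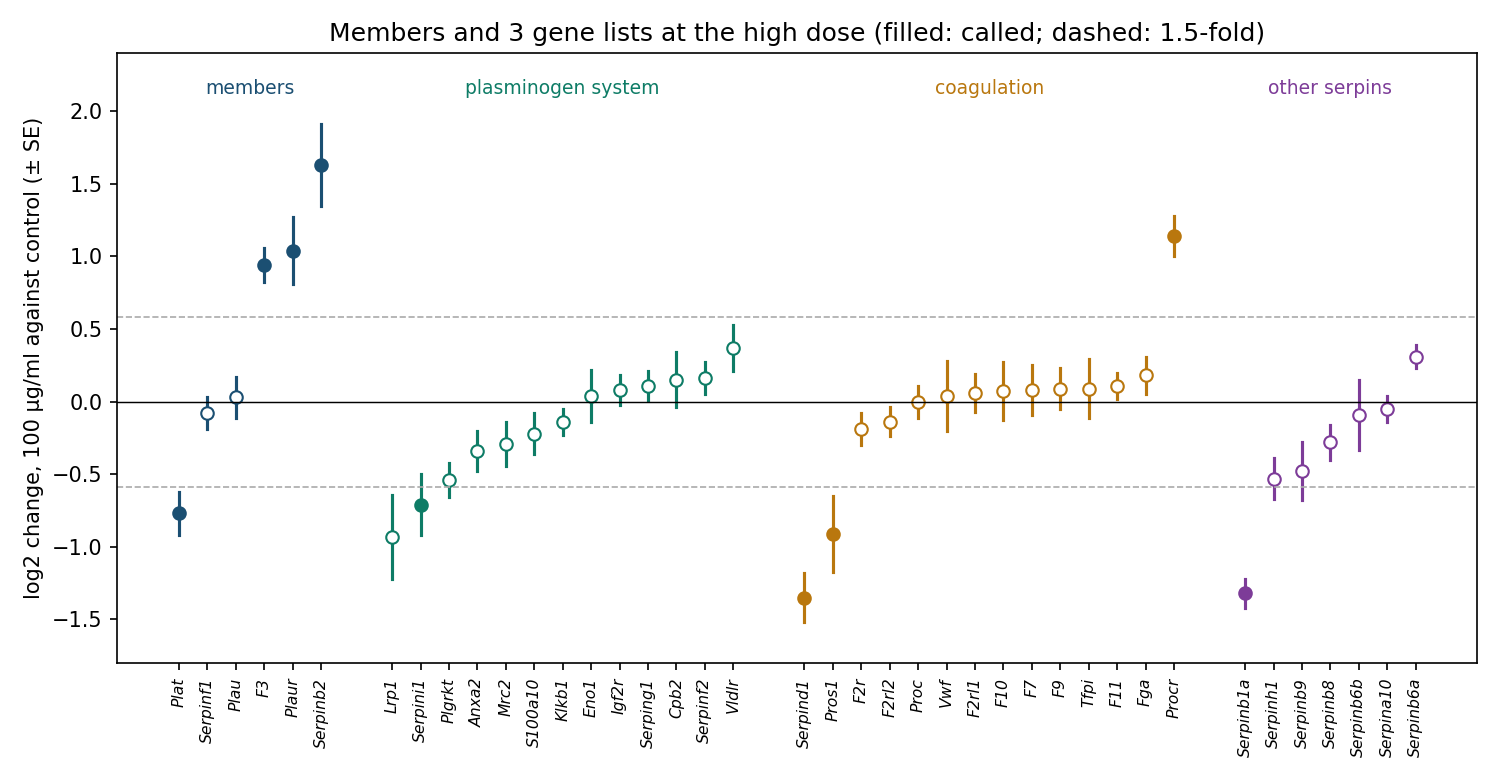
Change at 100 µg/ml against control on the log2 scale (y axis, ± SE) for the detected members and the detected genes of the 3 lists that are reported (x axis). Filled points were called, and they include Serpinb2, Plaur, F3 and Procr above the upper 1.5-fold line and Plat, Serpini1, Serpind1, Pros1 and Serpinb1a below the lower one.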

How the data were processed

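RNA samples of FE1 cells (22 in all) were read on 2-colour arrays. The deposited scanner files hold median spot intensity in both channels and a log10 ratio of the scanner software with its own correction. Per the file headers these were Feature Extraction 10.7.3.1, scanner G2505C and a grid on mm9, and the methods of the study name another version and scanner. The authors' processed log2 table, of unstated normalization, has column medians of 0.00433 to 0.0267 and slopes of 0.575 to 0.981 on the ratios used here, and 20 of its 22 columns correlated best with their own array. Its direction is that of Cy5 over Cy3 and its scale is not known.

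Log2(Cy5/Cy3) without background subtraction was normalised by loess (span 0.3) after removal of control spots and outlier-marked spots, and spots of 1 probe were combined by their median. Detection used 308 negative control spots, with 5% trimmed and 3 SD added. Symbols came from accessions (26413 of 55681 probes matched). limma 3.58.1 in R 4.3.3 fitted group and slide over all arrays, in place of the shrinkage test that the methods of the study name, with P-values adjusted over all probes. The fit was tested on simulated data with independent arrays, which cannot show whether the arrays here are independent. Signal is not a count, so no depth is given. The methods of the study state 3 individual experiments, fewer than the arrays of each group, and the labels do not say which arrays come from which experiment. The fit treats arrays as independent. Replicates may not be separate cultures or experiments, in which case P-values measure spread between these samples. Samples of the same number were alike: deviations from group means of 31 same-number pairs correlated at 0.187 to 0.819, 27 of them on the same slide. Slide means were not removed there, so likeness by number and likeness by slide cannot be told apart. The slide term would cover a pairing by number only in part. Slide 1 holds replicates 1 and 2 of each group. On slide 4, replicate 5 of the control and medium dose lies with replicate 6 of the low and high doses. The reference RNA is in Cy3 on every array, so dye bias cancels only between groups.

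Genes are given by their brightest probe. Genes named beside the members were those called in 3 lists, and the 3 most like each detected member (detected on at least 18 arrays and measured on at least 20). The others named in the lists and markers were picked after their values were seen. Members, lists and motifs were chosen with earlier results of these data known. In the plasminogen list, 1 gene is not reported here and is left out of its counts and of the search for like genes. Alternatives were other background corrections, normalizations, models, thresholds and left-out arrays and slides.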

Additional observations from a re-analysis of the deposited data

Results flagged for a closer look

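In 3 of 36 groups of arrays the extreme array stood apart from the others by Dixon's test, and chance gives about 1 in 20. In F3, high dose replicate 6 (1.71) lay below the other 4 arrays with a value (1.92 to 2.00). In Serpinf1, high dose replicate 5 (0.89) lay above the other 5 (0.37 to 0.56), on slide 5, where there is no control array. In Serpine2, medium dose replicate 2 (-0.14) lay above the other 4 (-0.47 to -0.41), in a gene not detected on any of the 22 arrays.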

How the results depend on the processing

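Each change of the 7 members at the 3 doses was recomputed under 44 alternatives, and of 924 values 871 kept their direction and side of the threshold, 30 lost a call and 23 changed sign, all of the latter in changes that were not called. The number of called members (3, 4 and 4 at the low, medium and high doses) became 1, 1 and 2 with a threshold of 2-fold, 1 and 2 at the medium and high doses with median centring, and 1 at the medium dose without slide 1, which leaves 3 or 4 arrays a group (a group with fewer than 4 arrays left needed detection on all of them, a rule set after seeing the data). With 1 array left out it ran from 2 to 3, 3 to 4 and 4 to 4, and between doses it stayed at 0 under all 44. With a replicate block (the number of the replicate as a term, and no slide) it was 3, 4 and 4, and no call of a member changed. Without low dose replicate 1 and medium dose replicate 2 together it was 2, 4 and 4.

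The changes that turned sign were small. Plau at the low dose was 0.07 with the deposited processed table, 0.10 with the scanner ratio and 0.01 without slide 2, and at the high dose -0.05 with median centring, -0.06 without a slide term, -0.01 with slide as a random block and -0.18 without slide 3. Plaur at the low dose was -0.09 without slide 1. Serpinf1 at the low dose was 0.01 without a slide term and 0.04 without the 2 arrays, and at the high dose 0.01 without slide 3. Serpine2 without slide 1 was 0.01 and 0.03 at the medium and high doses. With 1 array left out, Plau ran from -0.25 to 0.02 at the low and -0.15 to 0.12 at the high dose, Serpinf1 from -0.10 to 0.04 at the low dose, and Serpine2 from -0.10 to 0.03 at the medium and -0.08 to 0.03 at the high dose. Signal over background limits Serpine2, the controls of Serpinb2 and, on 2 arrays, Plau and, on 1 array, Plat. The causes were not tested.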
